A study of Mus musculus with 8 samples.

Results

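The 9 genes described here, Mbp, Mobp, Mog, Mag, Cnp, Mal, Trf, Aspa and Ermn, belong to the myelin-forming oligodendrocyte and were chosen by symbol from the 38924 genes in each table. Oligodendrocytes wrap central axons in a many-layered membrane. Its compact part is held together by myelin basic protein and related cytoplasmic proteins, while adhesion proteins sit on its innermost and outermost turns. The mRNAs of Mbp and Mobp are known to travel into the cell's processes and to be translated near the sheath, whereas membrane proteins such as Mag and Mog are made on the endoplasmic reticulum. None of these genes is a marker of the cholinergic neurons that the study set out to isolate.

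Ribosomes were precipitated from whole mouse spinal cord with an antibody against the HA tag on Rpl22, which belongs to the large subunit of the ribosome. Cre made under the control of Chat switches the tag on in cholinergic cells, among them the motor neurons, so the Cre libraries hold the mRNA of those cells and whatever binds without a tag. All mice were of the strain background B6.CgxB6.129 and carried 1 tagged Rpl22 allele (Rpl22 +/-), and the series' design text gives Gars+/+ as the genotype. The Cre mice with a sciatic nerve crushed on 1 side were animals 35 (18 weeks old) and 52 (9 weeks). The no-Cre mice with a crush were animals 51 and 58 (both 9 weeks). The uncrushed mice, all 8 weeks old, were animals 10 and 3 with Cre and animals 4 and 6 without. The genotype entry reads Chat +/- for Cre and Chat +/+ for no Cre, except that it contradicts the title for animals 3 and 4. Crushed and uncrushed mice differed in age, and only the titles of the uncrushed mice share an extra number, so crush, age and whatever that number marks cannot be told apart. The time after crush is unknown from the sources used here. The crush was made on 1 side and the whole cord was taken, so each value averages both sides. The 8 libraries held 4826979 to 11522721 expected counts. Mitochondrial ribosomal RNA took 1.613 to 5.531% of counts with Cre and 11.474 to 48.215% without. Chat encodes the acetylcholine-making enzyme. It ranged from 78.17 to 126 CPM (counts relative to the scaled library total) in the 4 Cre libraries and from 3.832 to 5.157 CPM in the 4 no-Cre libraries. Animals 3 and 4 therefore had the Chat levels of their titles.

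Every one of the 9 genes was well counted. The smallest value was 44 counts, for Aspa in Cre uncrushed animal 10, and the largest 12815, for Mbp in no-Cre crushed animal 58. Compared per length within a library, in TPM (relative transcript abundance), Mbp was the most abundant and Mobp came next in all 8 libraries. By TPM, Mbp stood 42.4 to 95.2 times above Mog. The last place was held by Aspa in 3 libraries and by Mog in the other 5.

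Of the 9 genes, 7 had a promoter in RefSeq's GRCm38.p6 table, with 3 promoters listed for Mag. Words known from factors of the oligodendrocyte lineage were searched on both strands from 250 bases before to 50 bases after the annotated start. A base may belong to more than 1 match. The MYRF core CTGGCAC was found for Mag and Cnp, and occurs in 5.01% of the 32851 windows in the table. Its variant CTGGTAC was found for Mog (2.24% of windows). The SOX core ACAAAG was found for Mobp, Mag and Cnp (18.7%), with 6 copies at Mobp, and ACAATG for Ermn (12.6%). The E-boxes CAGCTG (16.3%) and CAGATG (17.2%) were both found at Aspa alone, and Mal held none of the 6 words. For Mag, promoters 1 and 2 overlap and held the same CTGGCAC and ACAAAG matches, and promoter 3 held none of the words. Promoter 1 is the one shown for Mag. The percentages are per single window, whereas Mag had 3. A match describes the letters and is not a binding site. The 250 bases before the start are shown for the 4 genes with a MYRF or SOX word that represent sheath, adhesion and cytoplasmic proteins, 5′ to 3′ on the gene's strand, with the searched words in capitals in either orientation.
Mobp, chr9:120149492-120149741, forward strand: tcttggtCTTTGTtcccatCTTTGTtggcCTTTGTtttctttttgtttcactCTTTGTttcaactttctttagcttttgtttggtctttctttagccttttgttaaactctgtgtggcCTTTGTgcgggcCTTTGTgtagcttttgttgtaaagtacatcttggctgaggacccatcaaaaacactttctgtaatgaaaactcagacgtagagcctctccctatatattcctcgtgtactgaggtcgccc
Mag, chr7:30914864-30915113, reverse strand: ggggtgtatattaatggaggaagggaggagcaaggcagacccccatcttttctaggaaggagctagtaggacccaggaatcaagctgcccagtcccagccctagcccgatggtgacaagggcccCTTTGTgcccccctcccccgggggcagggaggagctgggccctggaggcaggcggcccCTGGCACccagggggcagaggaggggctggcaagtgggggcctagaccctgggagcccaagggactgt
Cnp, chr11:100574689-100574938, forward strand: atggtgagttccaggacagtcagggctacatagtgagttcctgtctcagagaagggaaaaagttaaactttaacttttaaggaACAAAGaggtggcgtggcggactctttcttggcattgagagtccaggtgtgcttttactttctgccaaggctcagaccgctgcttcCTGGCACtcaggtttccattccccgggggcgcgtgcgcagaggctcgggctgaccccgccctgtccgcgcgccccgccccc
Mog, chr17:37023399-37023648, reverse strand: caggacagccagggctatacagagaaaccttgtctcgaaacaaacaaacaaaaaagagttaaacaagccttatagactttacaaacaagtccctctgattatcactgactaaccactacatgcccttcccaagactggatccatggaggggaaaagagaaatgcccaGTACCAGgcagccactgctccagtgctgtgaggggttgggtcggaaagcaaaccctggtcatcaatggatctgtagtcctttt

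Precipitates with and without Cre were compared first in uncrushed mice. All 9 genes were lower with Cre, by 7.66-fold (Mal) to 13.2-fold (Aspa), and in every one both Cre libraries lay below both no-Cre libraries. The count of 9 called of 9 stands against 21.9% of all 15208 genes tested that were called lower, and 35.0% whose libraries were lower without overlap. A call is a Benjamini-Hochberg adjusted p under 0.05 in edgeR's quasi-likelihood test over all genes. The median log2 fold change of the 9 was -3.11, against -0.03 over all genes tested. CPM is relative to the library total, so a lower value with Cre gives no amount of RNA per cord. In bulk precipitates fewer cells of a type and less RNA per cell cannot be told apart. Neither can be told apart from a larger share of other mRNA, such as that of the tagged cells, in the Cre libraries.

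Among the sheath proteins, Mbp, which binds the cytoplasmic faces of the membrane together, measured 343.7 CPM in animal 10 and 315.5 CPM in animal 3, both with Cre. Without Cre it measured 3510.5 CPM in animal 4 and 2655 CPM in animal 6; the same order of animals is used below. The groups did not overlap, and Mbp was 9.35-fold lower with Cre (log2 -3.23 ± 0.34 standard error, adjusted p = 8.5e-05 by edgeR). Mobp, a small basic protein of compact myelin, had 107.2 and 96.8 CPM in the Cre libraries and 984.2 and 738.8 CPM in the no-Cre libraries, 8.44-fold lower (-3.08 ± 0.32). Mal, a proteolipid involved in membrane sorting, stood at 20.17 and 15.78 CPM against 116.6 and 157.9 CPM, 7.66-fold lower (-2.94 ± 0.31). The 3 differences lay within 1 standard error of each other.

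Mag, an adhesion protein of the innermost myelin turn, had 10.54 and 6.135 CPM in the Cre libraries and 79.15 and 104.4 CPM in the no-Cre libraries, 11.1-fold lower (-3.48 ± 0.33). Mog, which lies on the outer surface of the sheath, stood at 5.985 and 4.48 CPM against 33.92 and 48.34 CPM (-2.99 ± 0.34). Cnp, an enzyme of the non-compact cytoplasmic channels, stood at 30.7 and 27.17 CPM against 219.5 and 278.6 CPM (-3.11 ± 0.28). Again both Cre libraries were far below both no-Cre libraries. Ermn, an actin-binding protein of mature oligodendrocytes, had 17.17 and 14.12 CPM in the Cre libraries and 211.3 and 195.8 CPM in the no-Cre libraries (-3.70 ± 0.31). Aspa, which splits N-acetylaspartate to give acetate for lipid synthesis, stood at 5.724 and 4.967 CPM against 51.08 and 89.21 CPM (-3.72 ± 0.31). Trf, the iron carrier transferrin that oligodendrocytes make, stood at 14.96 and 20.06 CPM against 128.3 and 168 CPM (-3.08 ± 0.27). The adjusted p of the 9 genes ranged from 4.35e-05 (Aspa) to 0.000131 (Mog) by edgeR. Scaling by library totals alone moved the median of all genes by 0.68 and placed the 9 genes between -3.09 and -2.29, all still called lower, where 9.62% of all genes were. The calls over all genes then split into 4753 higher and 1463 lower, in place of 3137 and 3331.

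**Figure D1:**
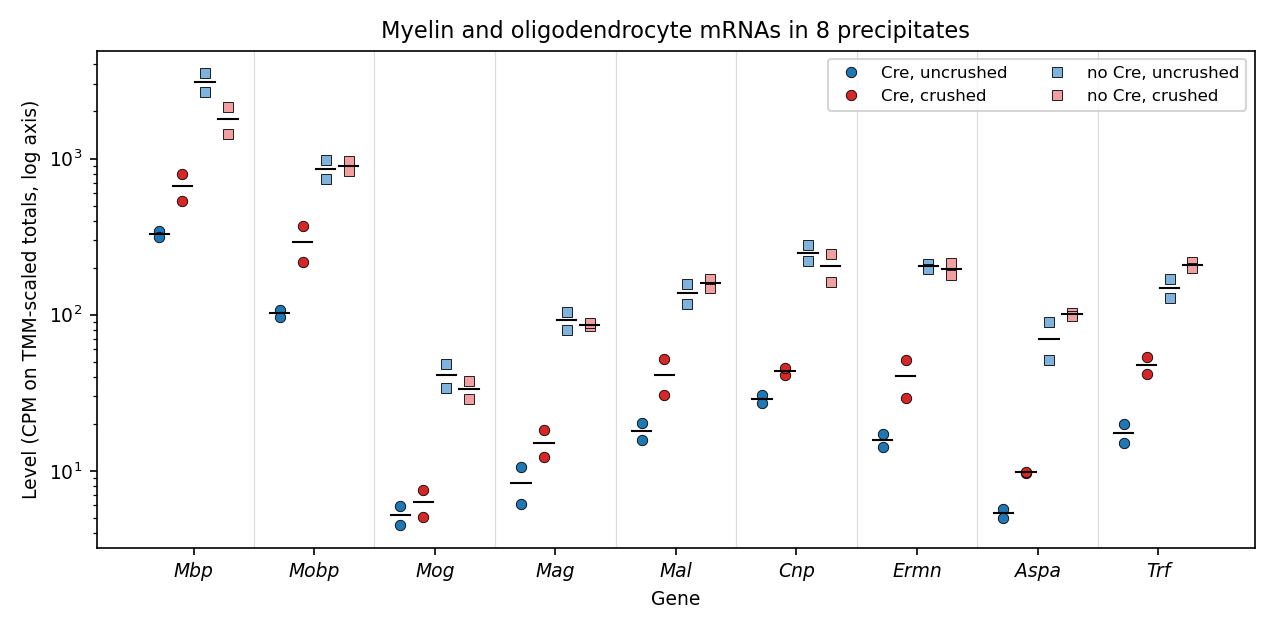
Level of each gene in CPM on TMM-scaled totals (log axis), with 1 point per library, circles for Cre and squares for no Cre, blue for uncrushed and red for crushed mice (paler without Cre), and a bar at the group mean (n = 2). Every Cre library lies below every no-Cre library for all 9 genes, and the Cre crushed points lie above the Cre uncrushed points for all genes except Mog, where they overlap.

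The same comparison in crushed mice again had all 9 genes lower with Cre, but over a wider range, from 2.69-fold for Mbp to 10.3-fold for Aspa. All 9 were called, where 21.3% of all genes were called lower, and no gene's groups overlapped, where 40.3% of all genes were lower without overlap. The median log2 fold change was -2.24, against -0.08 over all genes. The order of the genes differed from that in uncrushed mice: the sheath proteins Mbp (-1.43 ± 0.32, adjusted p = 0.00478), Mobp (-1.62 ± 0.30) and Mal (-1.94 ± 0.29) were lowered least. Trf (-2.12 ± 0.25), Cnp (-2.24 ± 0.26), Ermn (-2.29 ± 0.29), Mog (-2.41 ± 0.33) and Mag (-2.51 ± 0.30) followed. Aspa (-3.36 ± 0.29, adjusted p = 4.85e-05 by edgeR) was lowered most. The ranges of 1 standard error overlap for neighbours in this order, except for Mag and Aspa. With library totals alone, which moved the median of all genes by 0.14, the 9 genes lay between -3.22 and -1.21.

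Mbp measured 535 and 795 CPM in animals 35 and 52, which carried Cre, against 1439 and 2135 CPM in no-Cre crushed animals 51 and 58. Aspa had 9.621 and 9.889 CPM in the Cre libraries and 102.1 and 98.62 CPM in the no-Cre libraries. The Mbp values were spread within both groups, whereas those of Aspa were nearly the same within each. Mbp was not called without animal 35 (-1.13, adjusted p = 0.0935), nor with age as a covariate (-1.17, adjusted p = 0.08), by edgeR. Age differs within a group only between animals 35 and 52. All other calls of the 9 genes in the comparisons of Cre with no Cre held whichever library was left out.

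**Figure D2:**
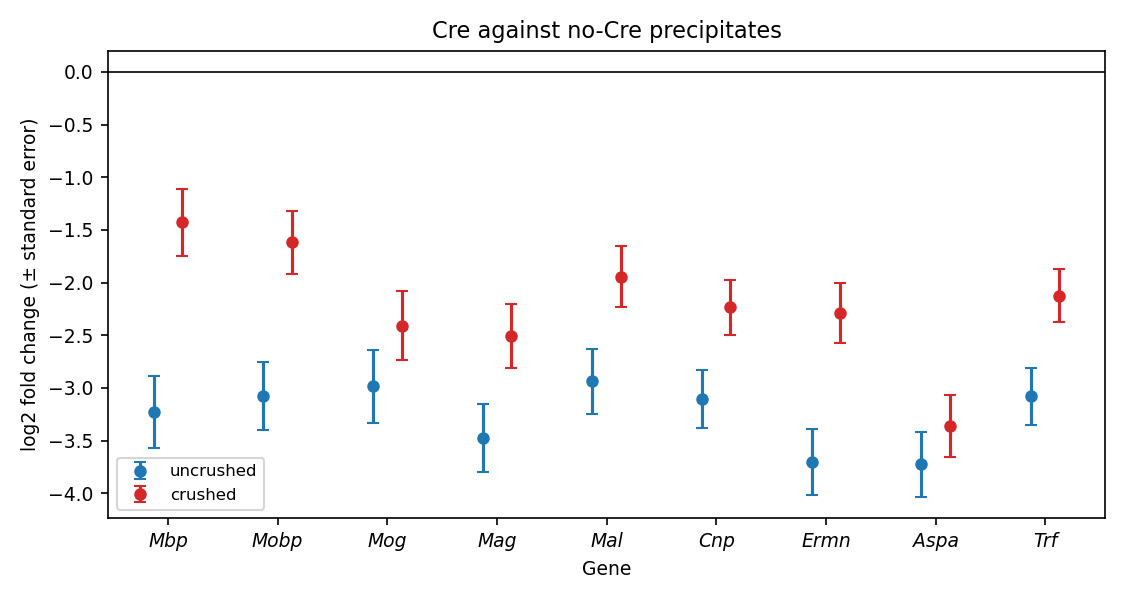
Log2 fold change of Cre against no-Cre precipitates for each gene, in uncrushed (blue) and crushed (red) mice, with bars of 1 standard error from the fit of all 8 libraries (n = 2 a group). The uncrushed values lie between -3.72 and -2.94, and the crushed values spread from -3.36 (Aspa) to -1.43 (Mbp).

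Crushed against uncrushed mice with Cre asked whether these mRNAs stood at another level in the precipitates of injured animals. All 9 genes had a higher mean after crush, and 0 of 9 were called, where 0.0395% of all genes were called higher and 0.0723% in either direction (11 genes). The log2 differences ran from 0.27 ± 0.34 (Mog) to 1.52 ± 0.30 (Mobp), with a median of 1.01 against 0.03 over all genes, and their adjusted p from 0.0915 (Trf) to 0.873 (Mog) by edgeR. For 8 genes, all except Mog, both crushed libraries lay above both uncrushed ones, as was so for 26.1% of all genes. The same 8 had an unadjusted p under 0.05 by edgeR. Of all genes tested, 5.75% had both such a p and a higher value.

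With Cre, Mobp measured 216.1 and 369.9 CPM in crushed animals 35 and 52, against 107.2 and 96.8 CPM in uncrushed animals 10 and 3 (2.87-fold, adjusted p = 0.129 by edgeR). Trf stood at 41.9 and 53.64 CPM against 14.96 and 20.06 CPM (1.44 ± 0.26, 2.72-fold). Ermn stood at 29.24 and 51.19 CPM against 17.17 and 14.12 CPM (1.36 ± 0.29). In each of these genes animal 52 was the higher of the crushed mice, and animal 35 alone was still above both uncrushed mice. Mal stood at 30.63 and 51.82 CPM after crush (1.199 ± 0.29), Mbp at 535 and 795 CPM (1.01 ± 0.32), and Mag at 12.22 and 18.12 CPM (0.87 ± 0.31). Cnp stood at 41.01 and 45.49 CPM (0.58 ± 0.26), and Mog at 5.064 and 7.516 CPM, 1 between its uncrushed values and 1 above them. Aspa had 9.621 and 9.889 CPM after crush against 5.724 and 4.967 CPM (0.87 ± 0.30). All 9 genes were lower in animal 35 than in animal 52, by a median of 1.48-fold.

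Other fits of the same counts called some of these genes higher. DESeq2 called 5 of the 9, Mbp, Mobp, Mal, Trf and Ermn, where it called 0.684% of all genes higher. When only the 4 libraries with Cre were fitted, edgeR called Mobp (adjusted p = 0.0449) and Trf (adjusted p = 0.038), where 0.355% of genes were called higher. Without a filter on low counts the same 5 genes as in DESeq2 passed, where 0.679% of genes were called higher. Leaving out any 1 library gave 0 calls among the 9. With library totals alone, which moved the median of all genes by 0.44, the 9 genes lay between 0.71 and 1.96 and 0 were called, and the calls over all genes split into 8 higher and 3 lower in place of 6 and 5.

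In the no-Cre precipitates, which hold only mRNA that comes down without a tag, the 9 genes had no common direction after crush. The median log2 difference was -0.06, 4 genes were above 0 and 5 below, and 0 of 9 were called, where 0.0723% of all genes were called in either direction. Mbp had the lowest value (-0.79 ± 0.31, unadjusted p = 0.0284, adjusted p = 0.349 by edgeR). It measured 1439 and 2135 CPM in crushed mice against 3510.5 and 2655 CPM in uncrushed mice. Its groups did not overlap, as was so for 19.0% of all genes in that direction, and 12.8% of all genes had an unadjusted p under 0.05. Trf (217.8 and 198.4 CPM against 128.3 and 168 CPM, 0.49 ± 0.25) and Aspa (102.1 and 98.62 CPM against 51.08 and 89.21 CPM, 0.51 ± 0.27) were the highest, also without overlap, as was so for 19.9% of all genes in that direction. Mobp (0.06 ± 0.30), Ermn (-0.06 ± 0.27), Mag (-0.09 ± 0.29), Mal (0.21 ± 0.28), Cnp (-0.29 ± 0.25) and Mog (-0.31 ± 0.31) lay closer to 0. These directions depend on the scaling: with library totals alone, which moved the median of all genes by 0.96, the 9 genes lay between 0.16 (Mbp) and 1.46 (Trf). Trf and Aspa were then called higher by edgeR, where 7.88% of all genes were, and the calls split into 1199 higher and 5 lower in place of 3 and 8.

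The difference between the crush effects with and without Cre was tested directly in the fit of all 8 libraries. None of the 9 genes was called, as none of the 15208 was (0.0%). At an unadjusted p under 0.05 there were 905 genes in all (5.95%), and DESeq2 called 15. The difference was above 0 for all 9 genes, with a median of 0.96 against 0.07 over all genes. With library totals alone, which moved the median of all genes by -0.53, it was below 0 for Aspa (-0.13). It was largest for Mbp (1.80 ± 0.45, adjusted p = 0.806), Mobp (1.46 ± 0.42) and Ermn (1.42 ± 0.40), and smallest for Mog (0.58 ± 0.46) and Aspa (0.36 ± 0.40) by edgeR. At an unadjusted p under 0.05, 7 of the 9 were higher, as were 3.53% of all genes. DESeq2 (adjusted p = 0.00903) and the fit without a filter (adjusted p = 0.00485 by edgeR) called Mbp, the only one of the 9, where they called 0.0592% and 0.177% of genes in that direction. This difference is the same quantity as the change in Cre depletion between uncrushed and crushed mice, so it adds no independent evidence to those comparisons.

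**Figure D3:**
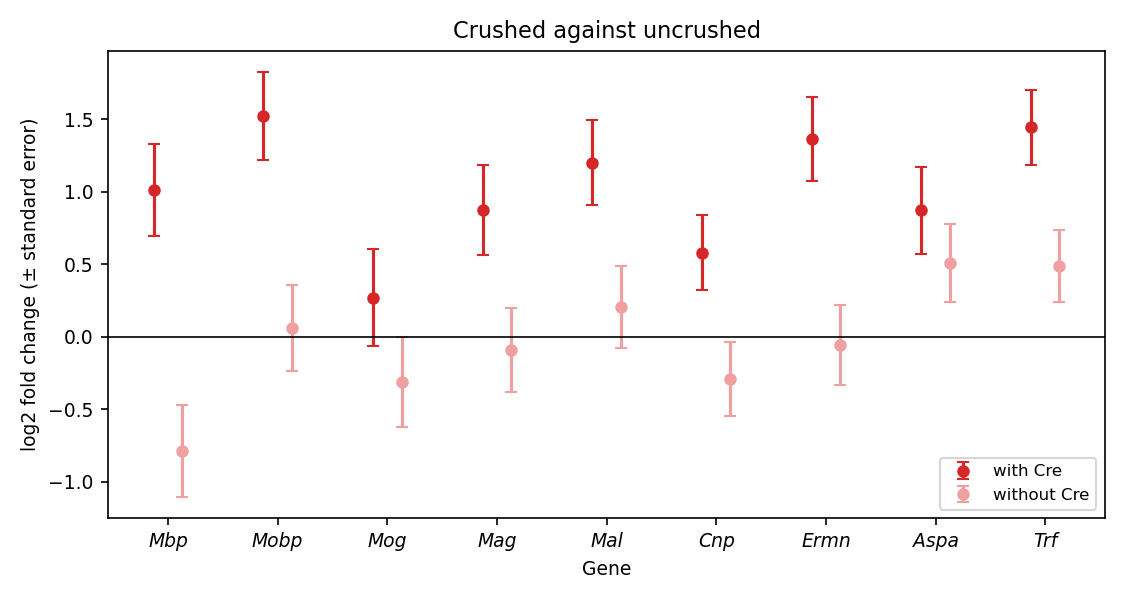
Log2 fold change of crushed against uncrushed mice for each gene, in precipitates with Cre (red) and without Cre (pale red), with bars of 1 standard error from the fit of all 8 libraries (n = 2 a group). With Cre all 9 values are above 0, from 0.27 (Mog) to 1.52 (Mobp), and without Cre they scatter from -0.79 (Mbp) to 0.51 (Aspa).

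The mix of the 9 mRNAs within a library does not depend on scaling between libraries. Mobp took 19.3% and 19.2% of their summed counts in Cre uncrushed animals 10 and 3, and 18.4% and 16.7% in no-Cre uncrushed animals 4 and 6. After crush it took 23.5% and 26.4% in Cre animals 35 and 52, and 25.9% and 23.3% in no-Cre animals 51 and 58. All 4 crushed libraries were thus above all 4 uncrushed ones, with and without Cre, and the nearest 95% Wilson intervals, which cover counting error only, ended at 20.5% and began at 22.8%. Mbp took 59.9 to 65.8% of the counts in the uncrushed libraries, 58.1% and 56.7% in Cre crushed animals 35 and 52, and 45.1% and 51.4% in no-Cre crushed animals 51 and 58. Per length, there were 19.5 to 25.2 Mobp transcripts for each 100 of Mbp in uncrushed mice and 28.4 to 44.2 in crushed mice. These shares were singled out after their values were seen and are given without a test, and the crushed mice were also older. Aspa took 0.705 to 1.04% in the 4 Cre libraries. In the no-Cre libraries it took 0.958% and 2.01% in animals 4 and 6 and 3.2% and 2.37% in animals 51 and 58.

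**Figure D4:**
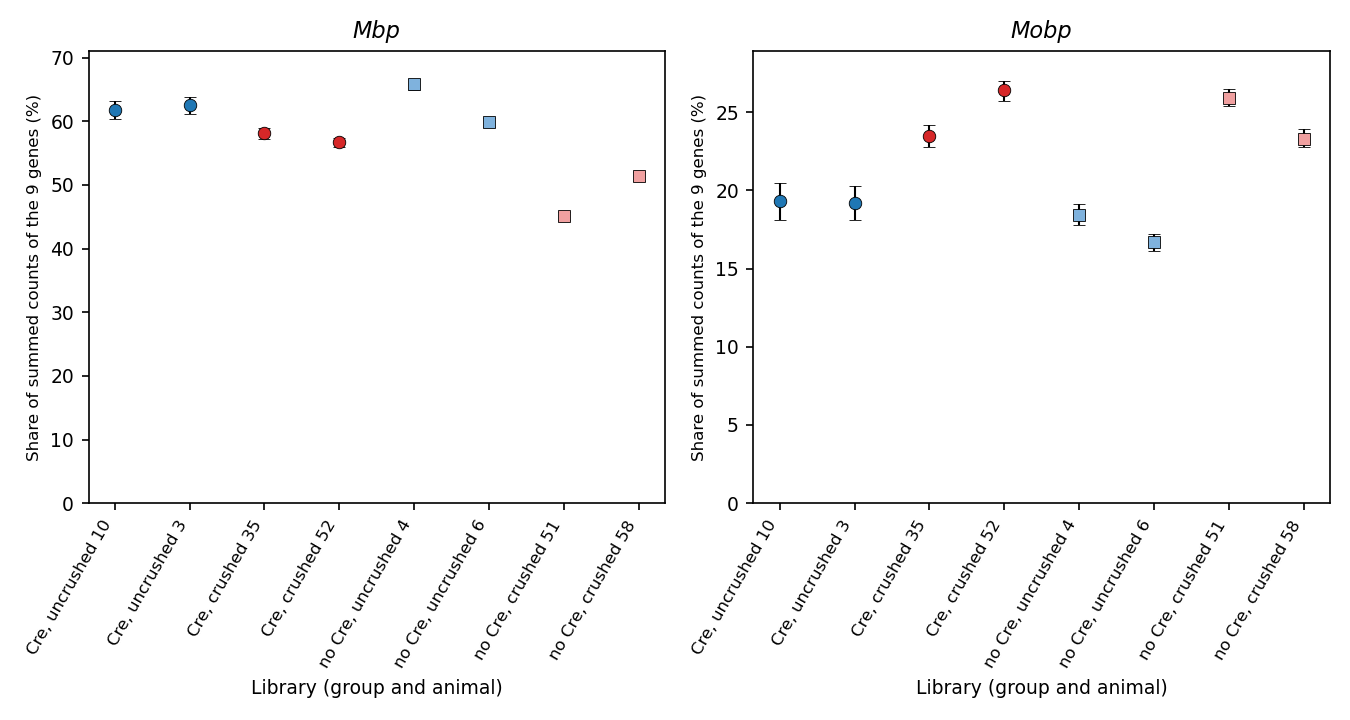
Share of Mbp (left) and Mobp (right) in the summed counts of the 9 genes in each library, in percent, with 95% Wilson intervals for counting error (many are smaller than the point). Mobp lies between 16.7 and 19.3% in the 4 uncrushed libraries and between 23.3 and 26.4% in the 4 crushed libraries.

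Most other genes of the lineage were also lower with Cre. Of all genes tested, 21.9% were called lower in uncrushed and 21.3% in crushed mice. In uncrushed mice 11 of 13 tested sheath and adhesion genes were called lower (median -2.72), all 3 gap junction genes (-2.90), 7 of 12 lipid and metabolic enzymes (-2.23) and 11 of 11 lineage transcription factors (-2.69). Nfasc, an adhesion protein that neurons also make at nodes and initial segments, had 411.9 and 469.3 CPM in the Cre libraries and 319 and 329.1 CPM in the no-Cre libraries, and was not called (0.44 ± 0.23). Of 13 other mature oligodendrocyte markers tested, 11 were called lower (median -3.11), with Sept4 (-0.24 ± 0.22) and Cryab (-0.28 ± 0.26) as the exceptions. Of 11 precursor markers 9 were called lower and 1, the matrix protein Tnr, which some neurons also make, higher (1.16 ± 0.35), where 20.6% of all genes were called higher. Markers of other cell types were lower as well: 12 of 12 astrocyte markers were called (median -2.88), 11 of 12 microglia markers (-3.43), and 11 of 12 endothelial and pericyte markers (-3.39), against -3.11 for the 9 genes. In crushed mice these 3 lists had 11, 10 and 12 lower calls. For the lists of the oligodendrocyte lineage the lower calls in crushed mice were 12, 3, 8, 10, 11 and 10 in the order given above, and Tnr was again called higher (1.24 ± 0.34), as 21.6% of all genes were.

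In crushed against uncrushed mice with Cre none of these lists had a called gene. Their medians were 0.42 for sheath and adhesion, 0.02 for gap junctions, 0.73 for enzymes, 0.52 for transcription factors, 0.45 for other mature markers and 0.55 for precursor markers, against 1.01 for the 9 genes. Over all genes tested the median was 0.03. Most markers of 4 other cell types also had higher values after crush in these precipitates. Of 12 astrocyte markers all 12 were above 0 (median 0.68, summed level 758.6 and 948.9 CPM against 616.4 and 559.1 CPM). Of 12 microglia markers 11 were above 0 (0.91, 35.82 and 41.85 CPM against 28.88 and 25.71 CPM). Of 12 endothelial and pericyte markers 10 were (1.26, 60.19 and 64.56 CPM against 52.69 and 35.45 CPM). Of 10 Schwann cell markers 8 were (1.02, 524 and 405.8 CPM against 359.6 and 325.7 CPM). No marker of these 4 lists was at 0 in both libraries of any group, and 0 were called. The summed level of the 9 genes was 920.8 and 1403 CPM against 556.2 and 505.1 CPM. Of 7 motor neuron markers 0 were above 0 (median -0.24). The part of these cell types in the result was not tested.

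**Figure D5:**
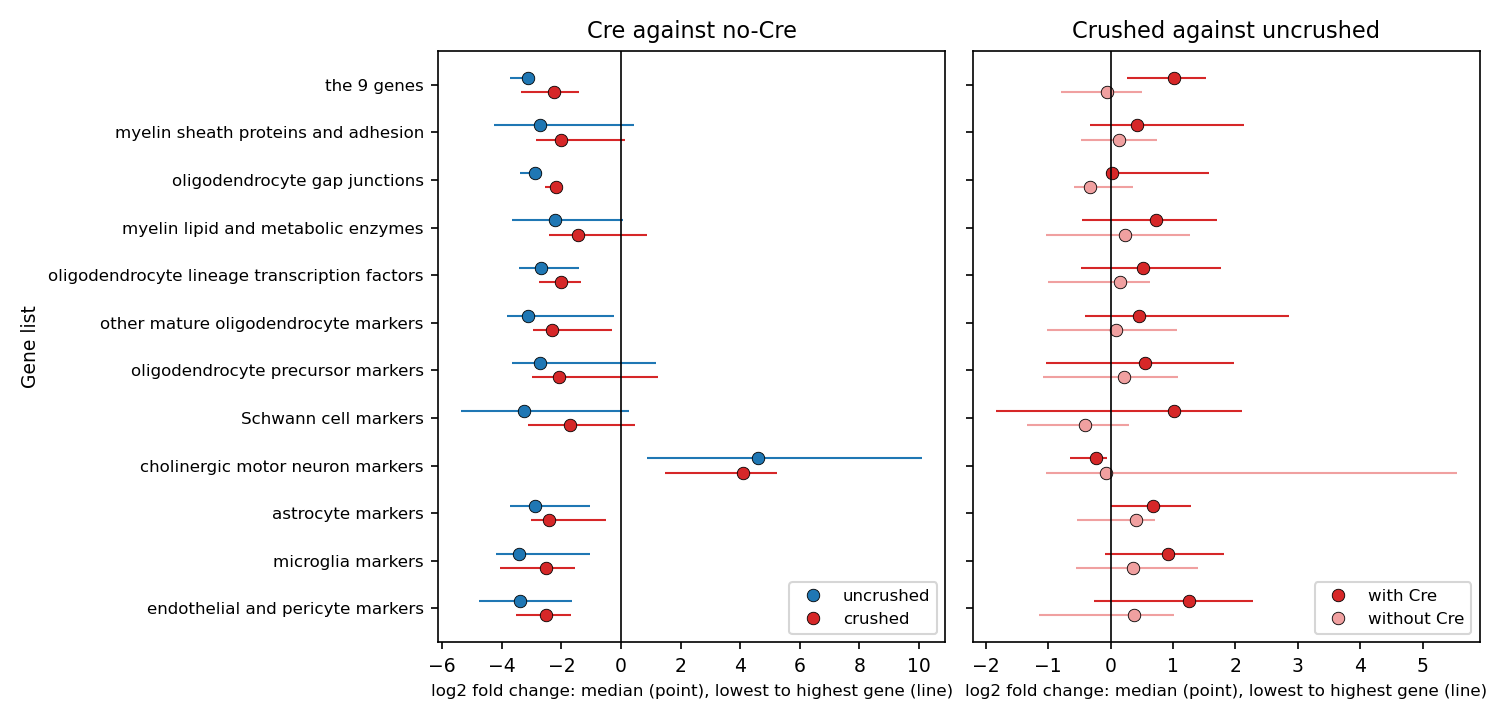
Log2 fold changes by gene list, as the median (point) and the range from the lowest to the highest gene (line), for Cre against no Cre (left, uncrushed blue and crushed red) and crushed against uncrushed (right, with Cre red and without Cre pale red). The 9 genes have a median of -3.11 and -2.24 on the left and 1.01 and -0.06 on the right. The upper ends of the motor neuron lines for uncrushed mice (left) and without Cre (right) belong to Mnx1, which had 0 counts in both no-Cre uncrushed libraries, so that its fitted value is no measure of size.

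The 10 genes whose levels followed the mean profile of the 9 most closely over the 8 libraries were picked among 9672 genes. These had a mean of at least 5 CPM, and predicted or unnamed genes and the 9 themselves were left out. The 10 picked genes included Kcnj10, Gpr37l1, Gpm6b, Cxcl12, Clmn, Tpcn1, Gfap, Fmnl2 and Padi2. The 10 were picked for a high Pearson r with that profile, which is itself the mean of the 9. The r values of the picked genes and of the 9 therefore cannot be compared. The r of the named genes ran from 0.9939 to 0.9983, and the 9 genes' own r from 0.967 (Mbp) to 0.997 (Ermn). Kcnj10, a potassium channel of glia, stood highest, at 40.3 and 37.5 CPM in Cre uncrushed, 64.3 and 84.6 CPM in Cre crushed, and 324 to 433 CPM in the 4 no-Cre libraries. Gfap, the intermediate filament of astrocytes, was among them. All these genes share the split between libraries with and without Cre.

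Some counts may hold reads of other genes. In the GENCODE M21 annotation, exons of Cnp overlap those of Dnajc7 on the opposite strand, which had up to 1526 counts in a library, and the sources used here do not say whether counting used strand. Ermn overlaps Galnt5 on the opposite strand (up to 32 counts), and Trf overlaps Gm20425 on the same strand (up to 12). If strand was not used, reads in the stretches shared by Cnp and Dnajc7, or by Ermn and Galnt5, cannot be told apart by position. For Trf and Gm20425 strand would not separate such reads.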

How the data were processed

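Ribosome-associated mRNA of 8 mouse spinal cords was sequenced, 1 library per animal and 2 animals in each of 4 groups taken from the titles. The number in each title is taken as the animal's; the labels do not say that the cords came from separate mice, and p-values measure the spread between these samples. The authors' tools were Bowtie2 2.2.0 and RSEM 1.2.12, per the submitters' processing notes. The sources used here do not state the genome build or annotation. The deposited expected counts per gene, RSEM's estimates that are not scaled for depth or length, were rounded to whole numbers. The deposited TPM values, scaled by the authors for length and to the same total in every library, were used only between genes within a library. The deposited gene lengths, in bases and of the type other, are RSEM's weighted means over transcripts. Symbols were assigned to 37607 of 38924 identifiers (96.6%).

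The filter on low counts was filterByExpr with a minimum count of 10 and a minimum total of 15. It kept 15208 genes, whose totals were scaled by TMM in edgeR 4.0.16 (R 4.3.3). The quasi-likelihood fit used all libraries and a mean for each group (4 residual degrees of freedom), with two-sided tests and Benjamini-Hochberg adjustment over all genes at 0.05. Each standard error was obtained from the log2 fold change and the F statistic. Alternatives were DESeq2 1.42.0 and its size factors, library totals alone, removal of mitochondrially encoded genes, no filter, only the compared groups, omission of both libraries with contradictory genotype entries, age as a covariate, and omission of each library. With these totals 3 counts correspond to 0.19 to 1.17 CPM. The scripts were tested on simulated data. The 9 genes and all gene lists were chosen with earlier results of these data known. Genes outside the 9 were named by mean level within their list, up to 4 a list, or by likeness to the 9. Of the listed symbols, Lhfpl3 and Slc18a3 were not matched, and Ninj2 and Ppp1r14a fell below the filter. Some genes that this rule would name are not reported here.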

Additional observations from a re-analysis of the deposited data

How the results depend on the processing

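Every value of the 9 genes was recomputed under each alternative. Of 144 values for Cre against no Cre, 144 kept their direction and side of the threshold in uncrushed and 142 in crushed mice. For crush with Cre 131 of 144 did, for crush without Cre 130 of 144, and for the difference of crush effects 131 of 135. Leaving out each library in turn gave 9 called genes of the 9 in uncrushed and 8 to 9 in crushed mice for Cre against no Cre, and 0 in the other comparisons. No paired analysis was possible because the groups share no animal numbers.

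Counts over all genes moved more, and the cause was not tested. For Cre against no Cre 6468 genes were called in uncrushed mice (3299 without the contradictory libraries, 3802 to 6512 leaving out 1 library, lowest without Cre uncrushed animal 3) and 6521 in crushed mice (2758 with age as a covariate, 2733 to 7392 leaving out 1 library, with 2733 without Cre crushed animal 35, 4041 without no-Cre crushed animal 51 and 4250 without Cre crushed animal 52). For crush with Cre 11 genes were called, against 281 without the filter, 159 by DESeq2, 126 in the fit of those groups, 5 without the contradictory libraries, 3 with age, and 7 to 15 leaving out 1 library, with 7 without any 1 of the 4 Cre libraries. Of the 9 genes, 5 were then called without the filter, 5 by DESeq2 and 2 in the fit of those groups. For crush without Cre 11 genes were called, against 1204 with library totals alone (2 of the 9 genes), 338 without the filter, 107 by DESeq2, 1 with DESeq2's size factors, 2 with age, 2 in the fit of those groups, 0 without the contradictory libraries, and 0 to 7 leaving out 1 library, with 0 without no-Cre crushed animal 58, Cre uncrushed animal 10 or Cre uncrushed animal 3, 3 without no-Cre crushed animal 51 or no-Cre uncrushed animal 4, 6 without Cre crushed animal 52 or no-Cre uncrushed animal 6, and 7 without Cre crushed animal 35. For the difference of crush effects 0 genes were called, also when leaving out 1 library, against 87 without the filter and 15 by DESeq2, with 1 of the 9 genes (Mbp) in each.

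Directions turned only for values that were not called. After crush without Cre, library totals alone gave 0.16 for Mbp, 0.59 for Mog, 0.85 for Mag, 0.59 for Cnp and 0.91 for Ermn. Ermn also turned without the contradictory libraries (0.0026) and with age (0.034). For the difference of crush effects, library totals alone gave -0.13 for Aspa. Leaving out 1 library turned, with Cre, Mog (-0.033 to 0.53 over the omissions), and without Cre Mobp (-0.12 to 0.27), Mag (-0.29 to 0.14), Mal (-0.0088 to 0.46) and Ermn (-0.19 to 0.075), and for the difference Aspa (-0.12 to 0.71).

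The smallest count of the 9 genes, 44, is well above 3 counts, so depth limited none of the detections.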

Other observations

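Schwann cells make the myelin of peripheral nerve. Of 10 Schwann cell markers 8 were called lower with Cre in uncrushed mice (median -3.25) and 5 in crushed mice (-1.71), by edgeR. Of all genes tested, 21.9% and 21.3% were called lower. Pmp22, which many cells make, was not called (0.27 ± 0.34 and 0.48 ± 0.34).

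RSEM's weighted mean transcript length moves only if the estimated mix of transcripts of a gene moves. For Mag (2419 bases), Mal (2778) and Ermn (3635) it was the same in all 8 libraries. For Mbp it was 2088.57 and 2047.58 bases in Cre uncrushed animals 10 and 3, above the 1851.27 to 1964.9 bases of the other 6 libraries. It ranged more widely for Aspa (1907.26 to 2623.73 bases) and Trf (1933.23 to 2351.42 bases). For Aspa it also differed within a group, at 2280.46 and 1907.26 bases in Cre crushed animals 35 and 52. The data used here hold no transcript-level counts, and these differences in length were not tested.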
